A study of Mus musculus with 20 samples.

Results

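Expression of 9 genes of the urea cycle and of periportal liver metabolism was followed in mouse liver before and after partial hepatectomy (PHx), with and without the polycomb protein EED in hepatocytes. The genes are Nags, Cps1, Otc, Ass1 and Asl of the urea cycle, Gls2, Hal and Sds of glutamine, histidine and serine breakdown, and Cyp2f2, a cytochrome P450. They were picked by symbol as a list of the pathway, with no threshold on a measured value but with earlier results of these data known. Each matched a single identifier among the 46603 in the count files, and all 9 passed the filter on low counts that left 14661 genes.

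Liver RNA was sequenced from male mice aged 2 months on standard chow. All carry the strain label C57BL6/J; the wild-type (WT) mice came from The Jackson Laboratory, and the EedHepKO mice (KO) from an inbred colony. KO mice carry Alb:Cre, a Cre recombinase under the albumin promoter, which is active in hepatocytes, together with Eedflox, an Eed allele with loxP sites around exons 3 and 6. EED is a core subunit of polycomb repressive complex 2 (PRC2), which methylates histone H3. RNA came from whole pieces of lobe, so it includes cells other than hepatocytes. Each genotype gave 5 samples at baseline, from lobes 1, 2 and 3 taken at surgery, and 5 samples after PHx, from lobes 4, 5 and 6. Of the samples after PHx, 1 per genotype was taken at 30 h, 2 at 40 h and 2 at 48 h. Genotype cannot be told apart from the colony of origin, and the response to PHx cannot be told apart from the lobe sampled.

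The urea cycle turns ammonia into urea and in mammals runs in full mainly in hepatocytes. NAGS makes N-acetylglutamate, the activator that CPS1 needs to form carbamoyl phosphate in mitochondria, and OTC joins this to ornithine to give citrulline. In the cytosol ASS1 and ASL convert citrulline to arginine. These enzymes are richest in periportal hepatocytes, on the side of the lobule where blood enters, together with the liver-type glutaminase GLS2, the histidine ammonia-lyase HAL, the serine dehydratase SDS and CYP2F2. Glutamine synthesis from leftover ammonia lies at the other, pericentral end.

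In the coordinates of GENCODE M21 on mm10, Cps1 lies at chr1:67123026-67231259, Otc at chrX:10252305-10321024 and Ass1 at chr2:31470207-31520672. Asl lies at chr5:130011258-130029247 and Nags at chr11:102145513-102149477. Gls2 lies at chr10:128194457-128210004, Hal at chr10:93488768-93519304, Sds at chr5:120476526-120483932 and Cyp2f2 at chr7:27119909-27133660. Asl is on the minus strand and the others are on the plus strand, and all 9 are protein-coding. The strand setting of the counting is not given in the sources used here. Reads from exons shared with a gene on the opposite strand can therefore not be told apart, which touches 360 exon bases of Sds and Plbd2, 141 of Sds and Gm15690, 97 of Gls2 and Spryd4, 443 of Nags and Gm11586, and 274 of Cyp2f2 and Gm15883.

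Promoter sequences from RefSeq (GRCm38.p6) matched 5 of the genes, and these are shown: Otc, Hal and Cyp2f2, which fell after PHx in both genotypes, Ass1, which missed the edgeR threshold in both and was called by DESeq2, and Nags, which was not called. Each line holds the 250 bases before the start that RefSeq annotates, on the gene's own strand, 5′ to 3′, with every CG dinucleotide in capitals. The windows are chrX:10252055-10252304 for Otc, chr10:93488518-93488767 for Hal, chr7:27119705-27119954 for Cyp2f2, chr2:31470020-31470269 for Ass1 and chr11:102145263-102145512 for Nags, all on the plus strand. For Ass1 and Cyp2f2 the RefSeq start lies inside the GENCODE gene given above, so the end of each of these windows overlaps that gene.
Otc: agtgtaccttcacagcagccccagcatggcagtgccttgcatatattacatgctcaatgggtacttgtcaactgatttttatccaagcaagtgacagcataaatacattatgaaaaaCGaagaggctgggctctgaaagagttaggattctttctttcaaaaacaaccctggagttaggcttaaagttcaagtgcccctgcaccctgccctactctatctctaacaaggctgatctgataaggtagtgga
Hal: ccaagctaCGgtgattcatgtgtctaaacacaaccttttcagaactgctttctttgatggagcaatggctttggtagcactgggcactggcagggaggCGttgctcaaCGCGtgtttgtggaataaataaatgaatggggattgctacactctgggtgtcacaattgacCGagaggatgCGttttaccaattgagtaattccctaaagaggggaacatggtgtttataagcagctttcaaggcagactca
Cyp2f2: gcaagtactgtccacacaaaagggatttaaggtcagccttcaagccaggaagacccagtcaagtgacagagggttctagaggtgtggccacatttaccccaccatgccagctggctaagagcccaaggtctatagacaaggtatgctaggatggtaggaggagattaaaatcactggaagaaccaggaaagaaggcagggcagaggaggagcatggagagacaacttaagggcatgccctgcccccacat
Ass1: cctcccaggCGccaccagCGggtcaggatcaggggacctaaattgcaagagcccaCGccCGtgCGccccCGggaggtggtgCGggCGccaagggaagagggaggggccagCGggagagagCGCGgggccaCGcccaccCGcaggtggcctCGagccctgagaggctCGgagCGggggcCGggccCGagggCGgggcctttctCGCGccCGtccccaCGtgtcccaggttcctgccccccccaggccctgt
Nags: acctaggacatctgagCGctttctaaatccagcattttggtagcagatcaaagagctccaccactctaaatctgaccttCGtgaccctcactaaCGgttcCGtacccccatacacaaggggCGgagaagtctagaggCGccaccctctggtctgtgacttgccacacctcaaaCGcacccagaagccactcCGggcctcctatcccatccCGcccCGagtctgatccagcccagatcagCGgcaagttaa
The windows differed most in their CG content. Cyp2f2 held 0 CG and Otc 1, where 18.8% of 32851 mouse promoter windows of this length held 1 or none. Hal held 6, the median of all windows, and Nags 11. Ass1 held 23, a number reached by 13.3% of windows. The letters TATAAA, searched on both strands, occurred in Hal only among the 5, as TTTATA on the shown strand beginning at position -28 from the start, and in 12.4% of all windows. The letters TTNNGCAA, a pattern bound by C/EBP factors, were found on either strand in Hal only, as TTGCTCAA from position -150, and in 9.56% of all windows. None of the 5 windows held CAAAGNNCA, an HNF4 pattern present in 5.49% of all windows. A match is a description of letters and not of binding, and PRC2 binding was not analysed here. These matches do not overlap each other.

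Total counts ran from 21634890 to 30461351 per library, and every one of the 9 genes had at least 559 counts in each. Eed itself ran from 14.6 to 23.2 CPM (counts per 1000000 of the TMM-scaled library total) over the 10 WT libraries and from 2.75 to 7.52 CPM over the 10 KO libraries, with no overlap. Its log2 fold change in KO was -1.57 at baseline (SE 0.22, edgeR adjusted p = 6.07e-05), and the counts cover the whole gene, including exons outside the deleted part and cells without Cre. Summed CPM of 10 hepatocyte markers ran from 140000 to 163000 in WT at baseline, 95100 to 164000 in WT after PHx, 97200 to 131000 in KO at baseline and 60900 to 131000 in KO after PHx. None of these markers was at 0. In KO 2 of the 10 were called lower at baseline, Apob (-0.97) and Apoa1 (-0.80), and 2 after PHx, Apoa1 (-0.84) and Ambp (-0.68), while Alb was not called in any comparison of the 4 groups. Of markers of other cells, 4 of 9 for macrophages and 5 of 8 for stellate cells were called higher in KO at baseline, and 4 of 7 tested for cholangiocytes, 3 of 8 for stellate cells, 1 of 9 for macrophages and 1 of 7 for endothelial cells in KO after PHx, where 3 of 5 erythroid markers tested were lower. Mki67, a gene of cycling cells, ran from 0.505 to 1.76 CPM in WT at baseline and stood at 82.3, 0.217, 14.2, 0.284 and 328 CPM in WT after PHx libraries 1 to 5. In KO it stood at 34.6, 26.5, 3.38, 4.28 and 2.49 CPM at baseline and at 3.42, 8.17, 119, 25.3 and 3.65 CPM after PHx in libraries 7, 8, 10, 11 and 12. After PHx, KO libraries 7, 8, 11 and 12 lay within the KO baseline range and library 10 above it. In KO mice 7 and 8, sampled at 48 h, Mki67 was lower after PHx than at baseline. WT libraries 2 and 4 after PHx stand apart, with Mki67 below its WT baseline range, and calls that change without them are given both ways. WT baseline library 1, whose title has no mouse number, also stands apart: its counts differed from the other 4 of its group by a chi-square of 330.8 to 360.9 per degree of freedom, where these differed among themselves by 27.16 to 40.69. Leaving it out changed no call of a member in the 4 comparisons, and turned Sds at baseline from 0.059 to -0.014, neither called. All 10 proliferation genes were called higher after PHx in WT (median log2 change 6.65), 0 of 10 in KO (median 1.41, 1 at an unadjusted p under 0.05), and 3 of 10 in KO against WT at baseline. Of markers of endothelial cells, 1 of 7 was called higher in KO at baseline, of lymphocytes and neutrophils 1 of 7 tested, with Ly6g at 0 in both baseline groups, and of erythroid cells 1 of 5 tested was lower. Of cholangiocyte markers 1 of 7 tested was called higher in KO at baseline, with 5 higher at an unadjusted p under 0.05 and a list median of 1.59. Scaling by library size alone instead of TMM moved the median log2 fold change of all genes from -0.03 to 0.45 in KO against WT at baseline, to 0.37 after PHx, and to 0.40 and 0.37 in the WT and KO responses. The all-gene calls at baseline then split into 3521 higher and 113 lower, in place of 1631 and 717, and those after PHx into 3897 and 296, in place of 2342 and 1202. In the WT response they split into 3796 and 582, in place of 1677 and 1273, and in the KO response into 4059 and 961, in place of 2561 and 1770. Changes below are on the TMM scale.

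Levels of different genes were compared as CPM per 1000 bases of exon. In WT at baseline, Cyp2f2 stood highest with a mean of 1116 CPM per kb (range 998.6 to 1252), followed by Ass1 at 972.7 and Cps1 at 941.5, and the ranges of neighbours in this order overlapped. Otc followed at 167.2 CPM per kb with its range apart from Cps1 above and Gls2 below. Gls2 stood at 134.7 CPM per kb, Hal at 114.1, Asl at 99.48, Sds at 79.69 and Nags, the least abundant, at 24.79, with the ranges of Hal, Asl and Sds overlapping in turn. In KO at baseline Ass1 came first at 1213 CPM per kb, then Cps1 at 683 and Cyp2f2 at 529.1, with the ranges of neighbours overlapping, and Gls2 followed apart from them at 93.62. In WT after PHx Cps1 led with 690.8 CPM per kb, before Ass1 at 500.7 and Cyp2f2 at 191.5. In KO after PHx Ass1 led with 622.8 CPM per kb, before Cps1 at 431.4 and Cyp2f2 at 99.68. Every pair of neighbours overlapped in both groups after PHx, and Nags was last in all 4 groups. The 4 cycle enzymes Cps1, Otc, Ass1 and Asl together took a median of 0.668% of all counts in WT at baseline (range 0.566% to 0.764%), 0.62% in WT after PHx (0.258% to 0.767%), 0.827% in KO at baseline (0.626% to 0.953%) and 0.618% in KO after PHx (0.151% to 0.899%).

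After PHx, Otc, Gls2, Hal and Cyp2f2 fell in both genotypes, Cyp2f2 by the largest factor, and no member was called higher. In WT 4 of the 9 genes were called lower and 0 higher (edgeR quasi-likelihood test at a threshold of 0.05 for p adjusted across all 14661 genes tested), where 8.68% of all genes were called lower and 11.4% higher. In KO 4 of 9 were again called lower, each of them also called in WT, and 0 higher, where 12.1% of all genes were called lower and 17.5% higher. No member had an unadjusted p under 0.05 on the higher side in either genotype. The members' median log2 change was -0.96 in WT and -0.96 in KO, beside 0.04 and 0.10 over all genes. Without WT libraries 2 and 4 after PHx, 2 of the 4 calls in WT were left, Otc (-1.77, adjusted p = 0.0336) and Hal (-1.45, adjusted p = 0.0163), where 3.05% of all genes were then called lower. Markers of other cells moved after PHx as well. In WT 2 of 9 macrophage markers were called higher and 1 lower, 3 of 7 tested for lymphocytes and neutrophils higher and 3 lower, and 1 of 7 endothelial markers lower. In KO 4 of 9 macrophage markers were called lower and 1 higher, 3 of 7 tested for lymphocytes and neutrophils lower and 1 higher, 3 of 7 tested for cholangiocytes higher, 2 of 7 endothelial markers lower and 1 higher, and 2 of 8 stellate markers lower. Of 10 hepatocyte markers 2 were called lower in each genotype, and of 5 erythroid markers tested 1. The part of these cells in the members' changes was not tested. In bulk tissue fewer cells of a type and less RNA per cell cannot be told apart.

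**Figure D1:**
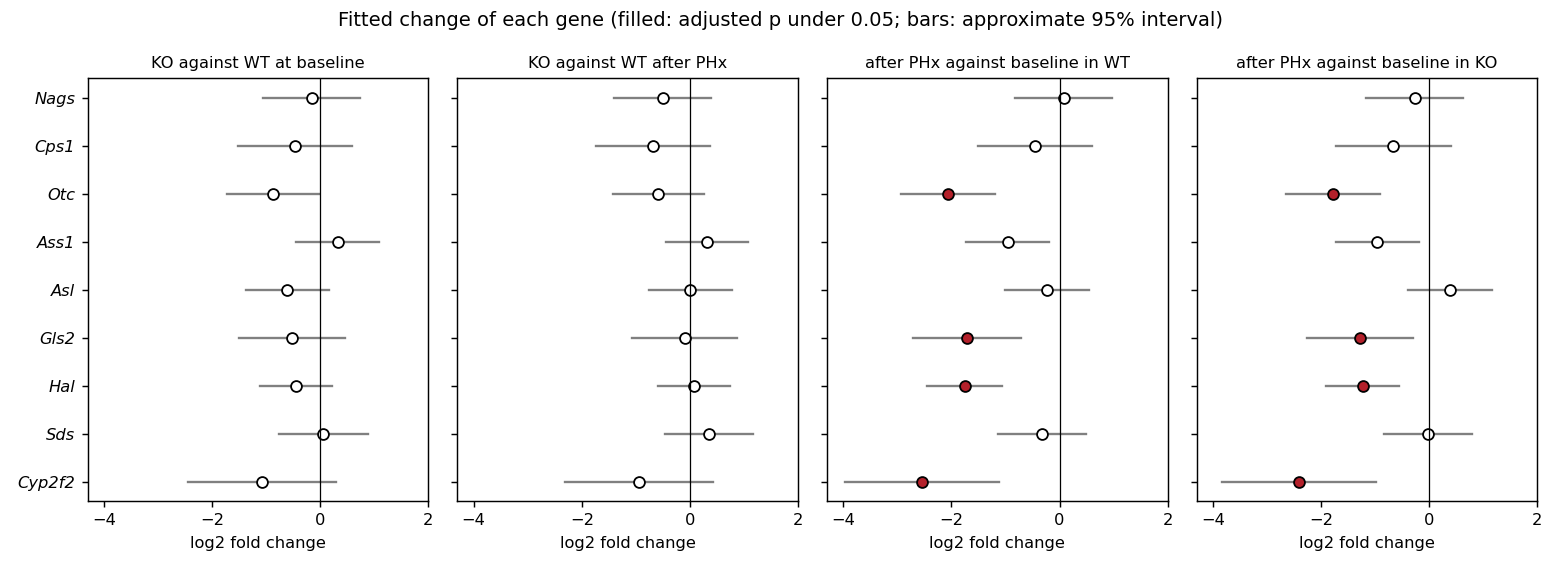
Fitted log2 fold change of each gene (x axis) in the 4 comparisons of the groups, with an approximate 95% interval as a bar and filled points for adjusted p under 0.05. Otc, Gls2, Hal and Cyp2f2 are filled in both comparisons of after PHx with baseline, and no gene is filled in the comparisons of KO with WT.

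Between genotypes no member was called, either at baseline or after PHx. At baseline 0 of the 9 genes were called lower and 0 higher by edgeR, where 4.89% of all genes were called lower and 11.1% higher. At an unadjusted p under 0.05 these were 1 lower, Otc, and 0 higher, where 12.2% of all genes were lower and 18.3% higher. After PHx 0 were called lower and 0 higher by edgeR, where 8.2% of all genes were called lower and 16% higher. None passed at an unadjusted p under 0.05 either, where 14.9% of all genes were lower and 21.6% higher. DESeq2 also called 0 of 9 in either direction at baseline, where it called 6.14% of all genes lower and 14.6% higher, and after PHx, where it called 10.2% lower and 18.2% higher. It called 0 higher in either response to PHx, where it called 15.5% of all genes higher in WT and 21% in KO. The members' median log2 fold change was -0.46 at baseline and -0.09 after PHx, beside -0.03 and -0.01 over all genes. When only the 10 baseline libraries were fitted, 4 genes were called lower at baseline (Otc, Gls2, Hal and Cyp2f2), a fit in which 18% of all genes tested (2396) were called lower instead of 4.89% (717). Summed hepatocyte markers and the macrophage, stellate and cholangiocyte markers given above also differed between the genotypes at baseline, and their part in these differences was not tested. These comparisons share groups: KO at baseline, for instance, enters both the baseline comparison and the KO response.

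Nags, whose product activates CPS1, was not called in any comparison of the 4 groups. It ran from 60.6 to 85.3 CPM in WT at baseline, 26.6 to 139 in WT after PHx, 41.4 to 84.9 in KO at baseline and 12.3 to 108 in KO after PHx. Its groups overlapped throughout, with log2 differences of -0.16 in KO at baseline (95% interval -1.06 to 0.74), -0.50 in KO after PHx, 0.07 for the response in WT and -0.27 for that in KO. The WT response was 0.59 without WT libraries 2 and 4 (adjusted p = 0.456).

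Cps1, the entry enzyme of the cycle, had 4999, 4186, 5883, 6067 and 5016 CPM in WT baseline libraries 1 to 5. It had 5921, 1328, 4859, 3102 and 3978 CPM in WT after PHx libraries 1 to 5. Libraries 1 and 3 stayed inside the baseline range, and library 2 was the lowest. Cps1 in KO stood at 2412, 3442, 4695, 4113 and 4308 CPM at baseline in libraries 7, 8, 10, 11 and 12. After PHx the same mice had 536, 451, 5006, 3187 and 2801 CPM. Libraries 7 and 8, the ones taken at 48 h, were far below the other 3, and the groups overlapped in all 4 comparisons. Cps1 was not called in any comparison of the 4 groups, with log2 differences of -0.46 for KO at baseline (95% interval -1.52 to 0.59), -0.68 for KO after PHx, -0.45 for the response in WT and -0.66 for the response in KO. The WT response was -0.030 without WT libraries 2 and 4.

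Otc, the citrulline-forming enzyme, had the lowest coefficient of variation of the 9 genes at baseline, 4.63% in WT and 12.8% in KO. It had 753, 716, 717, 697 and 663 CPM in WT baseline libraries 1 to 5. It had 217, 157, 150, 93.9 and 231 CPM in WT after PHx libraries 1 to 5, each below every baseline library. The log2 change in WT was -2.06 (SE 0.41, edgeR adjusted p = 0.00219), or 4.18-fold lower. Otc in KO at baseline stood at 390, 469, 382, 364 and 337 CPM in libraries 7, 8, 10, 11 and 12, all below every WT baseline library. The fitted difference of -0.87 from WT was nevertheless not called over all genes (SE 0.40, edgeR adjusted p = 0.147), and it was called when only the baseline libraries were fitted (-0.84, adjusted p = 8.2e-05). After PHx Otc had 89.8, 31.9, 95.8, 52.1 and 296 CPM in KO libraries 7, 8, 10, 11 and 12. The 30 h library, number 12, stood well above the other 4 and every KO library after PHx was below all of KO at baseline. The log2 change in KO was -1.78 (SE 0.41, edgeR adjusted p = 0.0046), and -2.53 without library 12 after PHx. Between genotypes after PHx, Otc differed by -0.59 (adjusted p = 0.302), and by -1.34 without KO library 12 (adjusted p = 0.00212) or -0.91 with time as a term (adjusted p = 0.0398), both called.

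Ass1, the enzyme that condenses citrulline with aspartate, was lower after PHx in 9 of 9 mice, but its changes missed the threshold. It had 2301, 2286, 2568, 2454 and 2131 CPM in WT at baseline and 1291, 867, 1807, 717 and 1362 CPM in WT after PHx, libraries 1 to 5 each. The WT groups did not overlap, and the fitted log2 change was -0.96 (SE 0.36, edgeR adjusted p = 0.0669). Without WT libraries 2 and 4 it was -0.60 (adjusted p = 0.439). Ass1 in KO had 2451, 1903, 3561, 3121 and 3600 CPM at baseline and 1482, 394, 2263, 942 and 2438 CPM after PHx in libraries 7, 8, 10, 11 and 12. The KO groups overlapped through libraries 10 and 12, and the log2 change was -0.96 (SE 0.36, edgeR adjusted p = 0.0513). With the mouse as a block the KO change was -1.18 and passed the threshold (adjusted p = 0.0229), as it did with time as a term (-1.05, adjusted p = 0.0286). In a fit of the KO libraries only it did not (-0.92, adjusted p = 0.152). The WT change passed in a fit of the WT libraries only (-0.92, adjusted p = 0.019). Leaving out a single library brought the KO change past the threshold in 3 of 10 fits and the WT change in 1 of 10. DESeq2 called both responses, at -0.93 in WT (adjusted p = 0.0461) and -0.93 in KO (adjusted p = 0.0361). The fitted level of Ass1 in KO stood above that in WT by 0.32 at baseline and 0.31 after PHx on the log2 scale, and neither difference was called. Gm5424, a processed pseudogene whose level was most like that of Ass1 (Pearson r of 0.99 over 20 libraries), held 2.76% as many counts as Ass1. Only reads with a unique place in mm10 were counted, per the design text, so reads that matched both copies equally are in neither count.

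Asl, which releases arginine, was not called in any of the 4 comparisons. It ran from 407 to 533 CPM in WT at baseline, 243 to 548 in WT after PHx, 187 to 555 in KO at baseline and 133 to 793 in KO after PHx. Its log2 difference was -0.61 for KO at baseline (adjusted p = 0.274), where 4 of the 5 KO libraries lay below all of WT, and 0.01 after PHx.

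**Figure D2:**
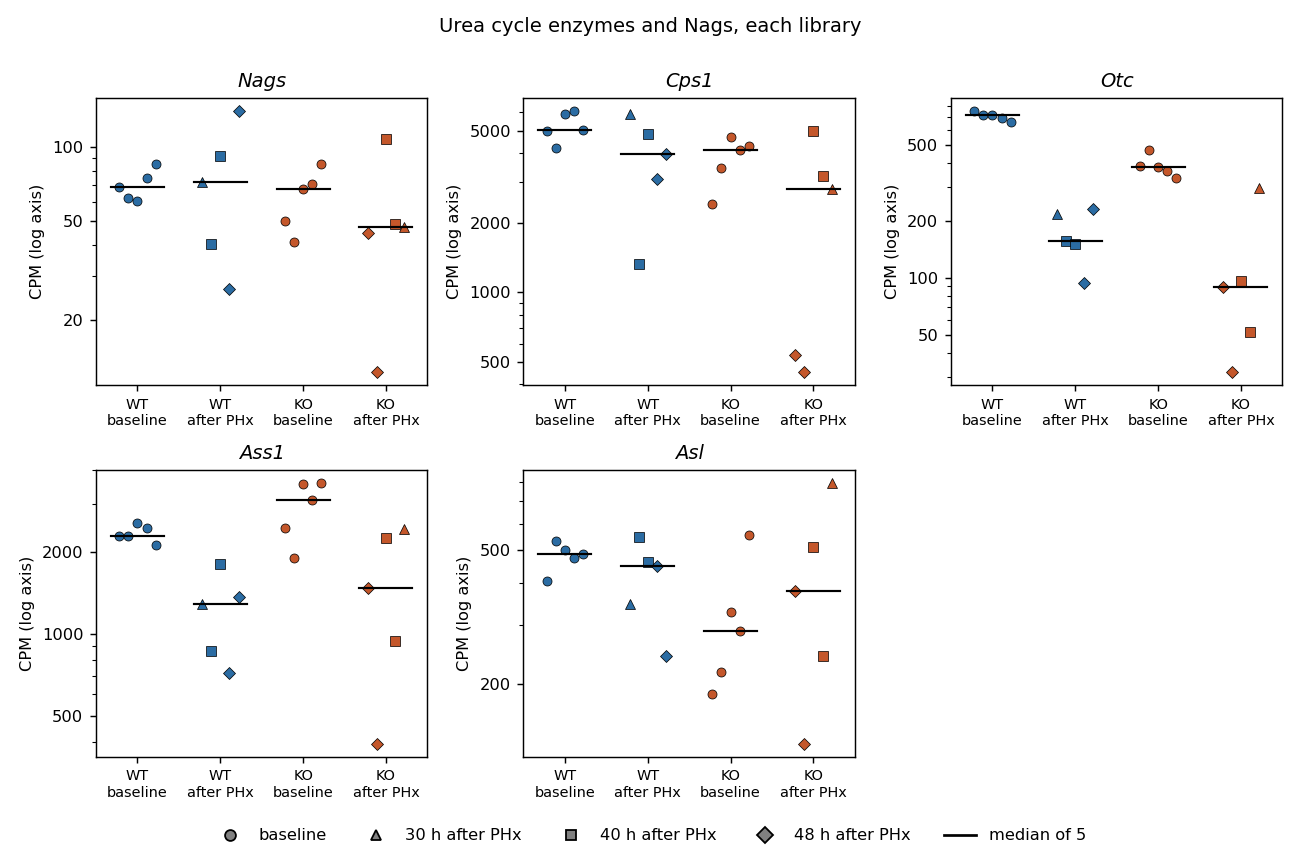
CPM on a log axis of Nags and 4 urea cycle enzymes in each of the 20 libraries, with the 4 groups on the x axis, the symbol showing the time after PHx and a bar at the median of 5. KO baseline libraries of Otc (337 to 469 CPM) lie below all WT baseline libraries (663 to 753 CPM), and both 48 h KO libraries of Cps1 (536 and 451 CPM) lie apart from the rest.

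Gls2, which releases ammonia from glutamine next to the cycle, fell after PHx in both genotypes. It had 422, 446, 512, 468 and 491 CPM in WT at baseline and 175, 86.8, 214, 45.2 and 194 CPM in WT after PHx, libraries 1 to 5 each. The WT groups did not overlap, and the log2 change was -1.71 (SE 0.47, edgeR adjusted p = 0.0149). Without WT libraries 2 and 4 after PHx, the lowest 2, it was -1.21 and not called (adjusted p = 0.145). Gls2 in KO had 238, 256, 356, 340 and 436 CPM at baseline and 66.8, 23.7, 286, 124 and 169 CPM after PHx in libraries 7, 8, 10, 11 and 12. Library 10 after PHx reached into the KO baseline range. The log2 change of -1.28 in KO was close to the threshold (SE 0.47, edgeR adjusted p = 0.0443) and was lost on leaving out any single KO library other than library 10 after PHx (adjusted p from 0.0529 to 0.122). It was also lost with RLE factors (-1.25, adjusted p = 0.0519), without the filter (-1.27, 0.0611), with library size alone (-1.10, 0.0584) and in a fit of the KO libraries only (-1.24, 0.102). With the mouse as a block it was -1.66 and called (adjusted p = 0.0207).

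Hal, the first enzyme of histidine breakdown, fell in both genotypes, and both calls held under every alternative run. It had 567, 635, 632, 667 and 666 CPM in WT at baseline and 208, 170, 294, 96.7 and 168 CPM in WT after PHx, libraries 1 to 5 each. Hal in KO had 343, 370, 618, 390 and 593 CPM at baseline and 146, 95.6, 283, 335 and 128 CPM after PHx in libraries 7, 8, 10, 11 and 12. Baseline and PHx libraries did not overlap in either genotype. The log2 change was -1.76 in WT (SE 0.32, edgeR adjusted p = 0.0012) and -1.23 in KO (SE 0.32, edgeR adjusted p = 0.0089).

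Sds, which deaminates serine and threonine, was not called in any of the 4 comparisons. It ran from 107 to 193 CPM in WT at baseline, 47.6 to 206 in WT after PHx, 73.1 to 195 in KO at baseline and 42.1 to 249 in KO after PHx. The groups overlapped in all 4 comparisons, with log2 differences between -0.32 and 0.35.

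Cyp2f2, a P450 widely used as a periportal marker in mouse liver, showed the widest swing. It had 2022, 2137, 2535, 2286 and 2321 CPM in WT at baseline and 727, 129, 256, 81.6 and 745 CPM in WT after PHx, libraries 1 to 5 each. The log2 change in WT was -2.54 (SE 0.67, edgeR adjusted p = 0.0124), or 5.83-fold lower, and it was -1.91 and not called without WT libraries 2 and 4 (adjusted p = 0.101). Cyp2f2 in KO had 715, 1091, 906, 1270 and 1376 CPM at baseline, all below WT at baseline, and 43, 22.8, 250, 166 and 527 CPM after PHx in libraries 7, 8, 10, 11 and 12. Baseline and PHx libraries did not overlap in either genotype. The log2 change in KO was -2.41 (SE 0.67, edgeR adjusted p = 0.0129), and -3.15 without library 12 after PHx. The baseline difference of -1.08 between genotypes was not called (SE 0.64, edgeR adjusted p = 0.271), and it was called when only the baseline libraries were fitted (-1.05, adjusted p = 0.000302).

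**Figure D3:**
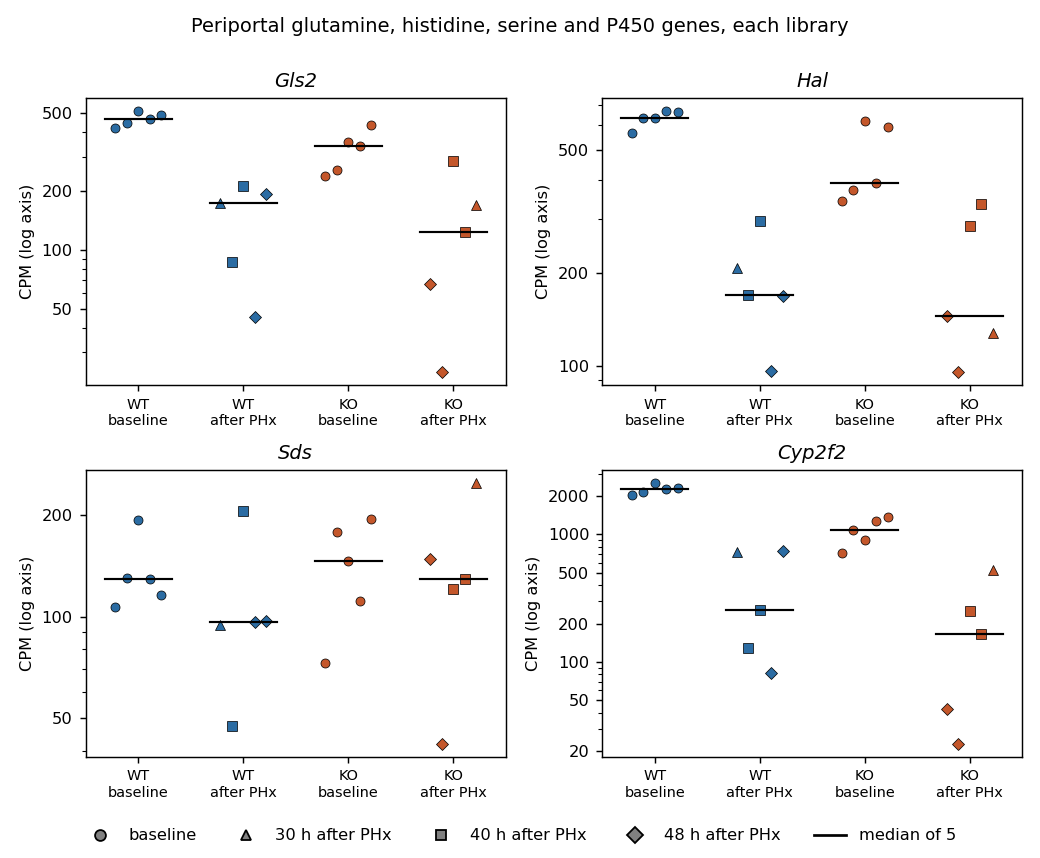
CPM on a log axis of Gls2, Hal, Sds and Cyp2f2 in each of the 20 libraries, with the 4 groups on the x axis, the symbol showing the time after PHx and a bar at the median of 5. Hal and Cyp2f2 after PHx lie below all baseline libraries of the same genotype, while the groups of Sds overlap.

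Groups that did not overlap were also counted. KO lay wholly below WT at baseline for 2 members (Otc and Cyp2f2), where 12.2% of all genes did so. After PHx this held for 0 members, where 2.97% of all genes did so. In the WT response 5 members lay wholly lower after PHx (Otc, Ass1, Gls2, Hal and Cyp2f2), where 10.9% of all genes did so, and in the KO response 3 did (Otc, Hal and Cyp2f2), where 7.73% of all genes did so.

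Samples before and after PHx can be compared within a mouse. Otc, Ass1, Gls2, Hal and Cyp2f2 were lower after PHx than at baseline in 9 of the 9 mice whose number stands in both titles. Cps1 was lower in 8 of 9, Nags in 6, and Asl and Sds in 5 each. The share of all genes lower in every one of these mice was not computed, so these counts have no background. Otc changed by -2.88 to -1.52 in the 4 WT mice and by -3.86 to -0.18 in the 5 KO mice, as log2 of CPM with 0.5 added. Cyp2f2 changed by -4.80 to -1.64 in WT and by -5.55 to -1.38 in KO on the same scale. In both genes KO mouse 8 showed the largest and KO mouse 12, sampled at 30 h, the smallest change among KO mice.

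**Figure D4:**
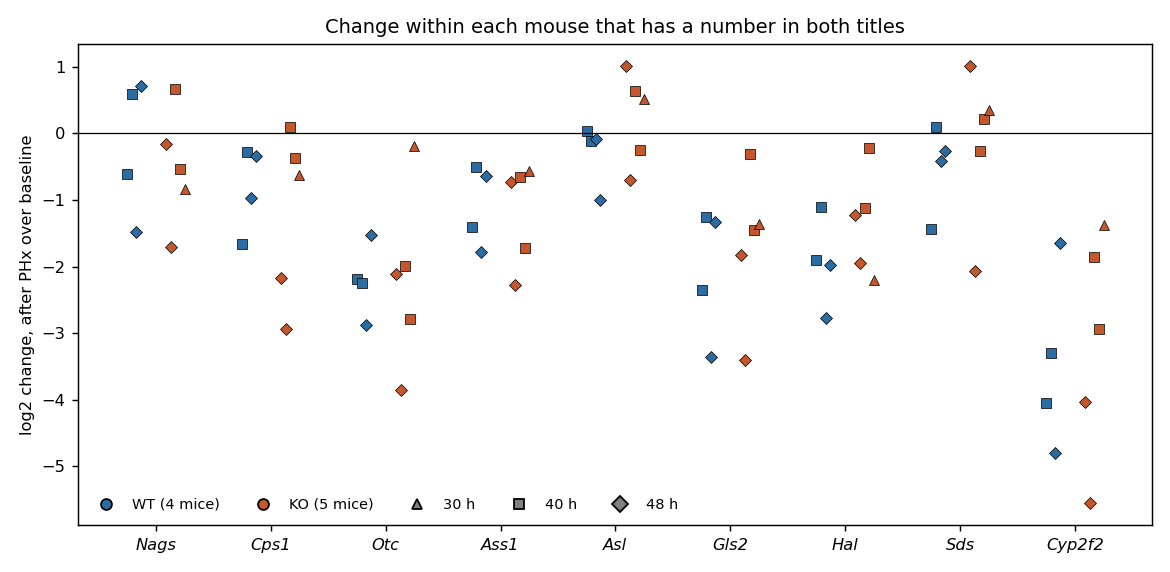
Change within each mouse (y axis, log2 of CPM after PHx over CPM at baseline, 0.5 added to each) for the 9 genes, 4 WT and 5 KO mice, with the symbol showing the time after PHx. All 9 points lie below 0 for Otc, Ass1, Gls2, Hal and Cyp2f2, and points lie on both sides of 0 for Nags, Cps1, Asl and Sds.

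No difference between the genotypes in the response to PHx was detected for any member. In the test of the difference of responses 0 of 9 genes were called by edgeR, where 0.389% of all genes were called in either direction, and 0 by DESeq2, where 1.31% were called higher and 1.26% lower. An unadjusted edgeR p under 0.05 was found for 0 members and for 13.3% of all genes. The difference was 0.28 for Otc (95% interval -0.91 to 1.47), 0.43 for Gls2 (-0.94 to 1.81), 0.53 for Hal (-0.42 to 1.47) and 0.13 for Cyp2f2 (-1.78 to 2.04). It was -0.22 for Cps1 (-1.71 to 1.27), -0.0033 for Ass1 (-1.08 to 1.07), 0.62 for Asl (-0.48 to 1.71), -0.34 for Nags (-1.61 to 0.93) and 0.29 for Sds (-0.86 to 1.44). Every interval holds differences of more than 1 log2 unit in at least 1 direction, and those of Cps1, Ass1 and Cyp2f2 hold differences of more than 1 log2 unit in either direction.

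Split by time, Cps1, Otc and Cyp2f2 were lower in KO than in WT at 48 h. At 48 h 3 of 9 members were called lower and 0 higher, where 10.7% of all genes were called lower and 13.7% higher. DESeq2 called 5 lower, where it called 15.1% of all genes lower, and without the filter edgeR called 5 lower, where it called 6.86% of all genes lower. Cps1 stood at 3102 and 3978 CPM in WT and at 536 and 451 CPM in KO, a log2 difference of -2.84 (SE 0.49, edgeR adjusted p = 0.00111), or 7.17-fold lower. Cyp2f2 stood at 81.6 and 745 CPM in WT and at 43 and 22.8 CPM in KO, a difference of -3.65 (SE 0.70, edgeR adjusted p = 0.00222). The WT libraries of Cyp2f2 lay further from each other than the lower of them from either KO library in CPM, and the difference was -1.39 without WT library 5 and -4.61 without WT library 4, both still called. Otc stood at 93.9 and 231 CPM in WT and at 89.8 and 31.9 CPM in KO, a difference of -1.42 (SE 0.43, edgeR adjusted p = 0.0249), which was lost without WT library 5 (-0.70, adjusted p = 0.29) or KO library 8 (-0.94, adjusted p = 0.158), as it was under library-size scaling (-1.07, 0.056), and which was -2.39 without KO library 7 and -2.03 without WT library 4, both called. Of hepatocyte markers 1 of 10 was called lower in KO at 48 h, with a list median of -0.56, and of cholangiocyte markers 4 of 7 tested were called higher. Of endothelial markers 2 of 7 were lower and 1 higher, of stellate markers 1 of 8 was higher, and of 5 erythroid markers tested 1 was lower. Other lists were lower in KO at 48 h too: 4 of 10 proliferation genes (median -4.77, with 10 at an unadjusted p under 0.05), 5 of 13 pericentral genes (median -1.57), 4 of 9 genes of urea cycle supply (median -0.94) and 7 of 22 enzymes that break down other amino acids (median -0.78). At 40 h the same lists had medians of 4.17 with 1 proliferation gene called higher, 0.92 with 2 pericentral genes called higher, 0.03 with 0 genes of supply called and -0.07 with 2 amino acid enzymes called lower. The members' medians were 0.24 at 40 h and -1.40 at 48 h. The part of these lists in the members' differences was not tested. Leaving out a library here leaves 1 in that arm, which is assumed to vary like the other groups. At 40 h 0 of 9 members were called lower and 0 higher by edgeR, which called 4.68% of all genes lower and 8.61% higher. DESeq2 also called 0 in either direction, where it called 7.63% of all genes lower and 12.9% higher. At an unadjusted edgeR p under 0.05, 1 member was lower and 0 higher, where 13.1% of all genes were lower and 18% higher. With 1 library per genotype, 30 h has no replicate: Otc was at 217 CPM in WT and 296 in KO, and Cps1 at 5921 and 2801.

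**Figure D5:**
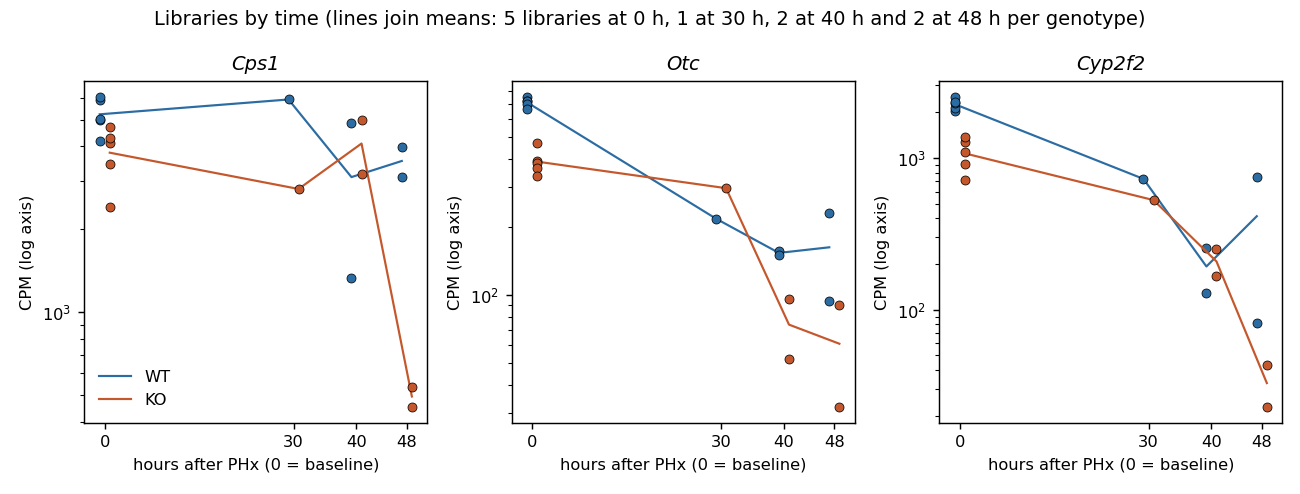
CPM on a log axis against hours after PHx for Cps1, Otc and Cyp2f2 in WT and KO, 1 point per library and a line through the means, with baseline drawn at 0 h. Both KO libraries at 48 h are below both WT libraries for Cps1 and Cyp2f2, and for Otc as well (89.8 and 31.9 CPM beside 93.9 and 231 CPM).

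Of 9 genes for carriers, aspartate and ammonia supply, 0 were called by edgeR in either genotype comparison or in the WT response. At an unadjusted p under 0.05 these were 0 in KO at baseline, 2 lower in KO after PHx and 1 lower in the WT response, and DESeq2 called 0, 1 lower and 0. Counts of 0 of 9, beside the all-gene shares of 4.89%, 8.2% and 8.68% called lower given above, are near the background. In KO after PHx 2 were called lower with time as a term (9.88% of all genes) and 2 without WT libraries 2 and 4 (9.23%). At baseline 3 were lower when only the baseline libraries were fitted (18%). The list's median log2 fold change was -0.35 and -0.34 between genotypes and -0.09 and -0.34 for the WT and KO responses. In the KO response 1 was called higher, Got1, which makes aspartate (1.32, edgeR adjusted p = 0.0175), and 1 lower, the glycerol and urea channel Aqp9 (-1.53, edgeR adjusted p = 0.0345), beside 17.5% of all genes higher and 12.1% lower. The Got1 call was lost with the mouse as a block (0.97, adjusted p = 0.0801), in a fit of the KO libraries only (1.37, adjusted p = 0.0651) and without KO library 12 after PHx (0.68, adjusted p = 0.0912). The Aqp9 call was lost without any of KO baseline libraries 10, 11 and 12 or KO PHx libraries 7, 8, 11 and 12 (adjusted p from 0.0503 to 0.0851), under library-size scaling (-1.29, 0.0591) and in a fit of the KO libraries only (-1.51, 0.0753), and it was -2.39 without KO PHx library 10. In this response 0 were higher and 3 lower with the mouse as a block (10.7% and 11.8% of all genes). With time as a term 3 were lower (15.2%), and without KO PHx library 10, 5 were lower (17.6%).

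The counts of the following lists in the reported fit stand beside the all-gene shares of each comparison given above. The alternatives have all-gene shares of their own. With the mouse as a block, 7.53% of all genes were called lower in the WT response and 11.8% in the KO response. Without KO PHx library 10, 17.6% were lower in the KO response. Without WT libraries 2 and 4, 3.05% were lower in the WT response and 9.23% in KO against WT after PHx. Among 10 further genes of histidine, serine and glycine breakdown, 2 were called lower and 1 higher after PHx in WT, and 3 lower and 1 higher in KO, with medians of -0.53 and -0.87. Amdhd1, further along the pathway that Hal opens, fell by 1.27 in WT (edgeR adjusted p = 0.0115) and by 1.43 in KO (edgeR adjusted p = 0.0049), the former not called without WT libraries 2 and 4 (-0.93, adjusted p = 0.12). With the mouse as a block, 6 of the 10 were called lower in KO and 0 higher, without KO PHx library 10 also 6, and without WT libraries 2 and 4 no gene of the list was called in WT.

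Of 22 enzymes that break down other amino acids, 10 were called lower after PHx in WT and 9 in KO, with 1 higher in each, where 8.68% and 12.1% of all genes were called lower, and the list's median log2 change was -1.11 in WT and -0.98 in KO. Haao, of the kynurenine pathway of tryptophan, fell by 2.27 in WT (SE 0.49, edgeR adjusted p = 0.00347) and by 2.04 in KO (SE 0.48, edgeR adjusted p = 0.00531). Prodh, which opens proline breakdown, fell by 1.81 in WT (edgeR adjusted p = 0.00683) and by 1.73 in KO (edgeR adjusted p = 0.00704), the former not called without WT libraries 2 and 4 (-1.34, adjusted p = 0.0642). Without these libraries 3 of the 22 were called lower in WT and 0 higher, and 6 were called lower without library 4 alone. In KO 16 of the 22 were called lower with the mouse as a block (11.8% of all genes) and 15 without KO PHx library 10 (17.6%), against 5 without KO PHx library 8 (7.95%) and 4 in a fit of the KO libraries only (7.54%). Between genotypes 1 of 22 was lower at baseline and 1 after PHx, the latter count being 2 without WT libraries 2 and 4.

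Of 12 other periportal genes, 1 was called higher and 3 lower after PHx in each genotype, with medians of -0.19 in WT and -0.58 in KO, and 1 was lower in WT without libraries 2 and 4. In KO 5 were lower without KO PHx library 10 (17.6% of all genes), and 1 without KO PHx library 7, 8 or 11 (7.43%, 7.95% and 13%). Between genotypes 2 of the 12 were higher and 1 lower in KO at baseline, and 1 higher and 1 lower after PHx, with medians of -0.09 and 0.14. Library size alone gave 0 lower at baseline (0.771% of all genes), and 4 higher and 0 lower after PHx (26.6% and 2.02%). With only the libraries compared there were 4 higher and 3 lower at baseline (21.4% and 18%), and 0 and 0 after PHx (8.12% and 1.57%). Apoc2, an apolipoprotein, was 2.77 higher in KO at baseline on the log2 scale (SE 0.36, edgeR adjusted p = 2.8e-05), and Aldh1b1, an aldehyde dehydrogenase, 1.96 higher (edgeR adjusted p = 0.0247). Apoc2 also rose after PHx in WT, by 3.04 (edgeR adjusted p = 2.74e-05). It was the 1 gene of the 12 called in the difference of responses (-2.23, edgeR adjusted p = 0.0454), where 0.389% of all genes were called. That call was lost in 16 of 20 fits that left out a single library, and with the mouse as a block. The Aldh1b1 call was lost without any of WT baseline libraries 2 to 5 or KO baseline library 12 (adjusted p from 0.0506 to 0.0597). G6pc, the glucose-6-phosphatase, was lower at baseline (-1.05, edgeR adjusted p = 0.0326), a call lost with library size alone (-0.56, adjusted p = 0.263), without the filter (-0.98, adjusted p = 0.0646) and without any of WT baseline libraries 2, 3 and 4 or KO baseline libraries 7, 10, 11 and 12 (adjusted p from 0.056 to 0.0976). After PHx Cdh1, which encodes E-cadherin, was 1.06 higher in KO (edgeR adjusted p = 0.00999), which was not called in a fit of the libraries after PHx only (1.10, adjusted p = 0.0946). Hsd17b13, a lipid droplet protein, was lower (-0.92, edgeR adjusted p = 0.0168), a call lost with library size alone (-0.60, adjusted p = 0.0701), in a fit of the libraries after PHx only (-0.90, adjusted p = 0.13) and without WT library 5 or KO library 7, 8 or 11 (adjusted p from 0.0505 to 0.0581). Of 13 pericentral genes, 1 was lower after PHx in WT and 0 in KO, with medians of -0.57 and -0.98, and 3 were lower in WT and 4 in KO with the mouse as a block, and 5 in KO without KO PHx library 10. Between genotypes 1 pericentral gene was higher and 1 lower both at baseline and after PHx, with 2 lower after PHx without WT libraries 2 and 4. The summed CPM of the pericentral list ran from 8460 to 13000 in WT at baseline, 1750 to 9620 in WT after PHx, 4570 to 8150 in KO at baseline and 1430 to 6450 in KO after PHx.

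Of 12 genes for other fates of nitrogen, such as pyrimidine, asparagine, proline and polyamine synthesis, 3 were called higher and 0 lower in KO at baseline and 2 higher and 0 lower after PHx, with medians of -0.12 and 0.03. Aldh18a1, which makes the precursor of proline and ornithine from glutamate, was 2.39 higher in KO at baseline on the log2 scale (SE 0.55, edgeR adjusted p = 0.00545) and 2.32 higher after PHx (SE 0.53, edgeR adjusted p = 0.00344). Asns, the asparagine synthetase, was 1.55 higher in KO at baseline (SE 0.42, edgeR adjusted p = 0.015) and 1.54 higher after PHx (SE 0.40, edgeR adjusted p = 0.00851). It also rose after PHx, by 1.93 in WT (edgeR adjusted p = 0.0039) and by 1.92 in KO (edgeR adjusted p = 0.00296), the former not called with the mouse as a block (1.71, adjusted p = 0.0575). Summed cholangiocyte markers ran from 34.2 to 79.8 CPM in WT and from 74.9 to 385 CPM in KO at baseline, and their part in the Aldh18a1 and Asns differences was not tested. Cad, which starts pyrimidine synthesis from cytosolic carbamoyl phosphate, was not called in any of the 4 comparisons, its differences between genotypes being -0.51 and -0.74. The latter was called without WT library 2 (-0.88, adjusted p = 0.0422) or KO library 10 (-0.88, adjusted p = 0.0378). After PHx 2 of the 12 were called higher and 1 lower in WT, and 4 higher and 0 lower in KO, with medians of 0.20 and -0.07. With library size alone 6 were higher in WT, where 25.9% of all genes were. Without WT libraries 2 and 4, 0 were lower in WT, and without KO PHx library 10, 3 were lower in KO.

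Among 15 regulators of hepatic metabolism and zonation, 2 were called lower in KO at baseline and 1 after PHx, where 4.89% and 8.2% of all genes were, with medians of -0.22 and -0.27. At baseline 0 were lower and 2 higher with library size alone, where 0.771% and 24% of all genes were. When only the baseline libraries were fitted 4 were lower, where 18% of all genes were. Cebpa, which encodes a C/EBP factor, fell after PHx in WT by 1.77 (SE 0.25, edgeR adjusted p = 0.000145). Its baseline difference of -0.88 in KO (edgeR adjusted p = 0.019) was lost without WT baseline library 1 or 5 or KO baseline library 7 or 10 (adjusted p from 0.0519 to 0.0881), without the filter (-0.82, 0.0582) and with library size alone (-0.40, 0.155). In all, 4 of the 15 were called lower after PHx in WT and 4 in KO, with 0 higher in either by edgeR and 2 higher in WT by DESeq2, and 2 were left lower in WT without libraries 2 and 4.

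Likeness of pattern over the 20 libraries is described by Pearson's r of log2(CPM + 1), over libraries that share the 4 groups and the times. Otc and Cyp2f2 had r of 0.94, Gls2 and Cyp2f2 0.94, Gls2 and Hal 0.90 and Ass1 and Gls2 0.89. Asl had r between 0.21 and 0.50 with every other member. Among 7641 genes outside the lists with a mean of at least 10 CPM, Pygl was most like Cyp2f2 (0.99), Ttc36 most like Gls2 (0.98), Gc most like Otc (0.97) and Ciao2b most like Cps1 (0.95). Zfp467 was most like Hal (0.94), C3 most like Nags (0.91) and Ndufa12 most like Asl (0.83). Sds had no close match, the highest being 0.71 with Gm5424.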

How the data were processed

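The files deposited by the authors hold whole-number read counts per Ensembl gene, 1 file for each of 20 mouse liver libraries, with no normalization. Per the design text, RNA with an integrity number above 8 went into poly(A) TruSeq libraries (1000 ng), fastp 0.20.0 trimmed the reads, and only reads with a unique place in mm10 were counted. The submitters' processing notes list FastQC 0.11.5 and Trimmomatic 0.36 instead of fastp. Aligner, counter, strand setting and annotation release are not given in the sources used here.

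GENCODE M21 gave symbols for 46005 of 46603 identifiers. In edgeR 4.0.16 (R 4.3.3), counts were scaled by TMM, filtered with filterByExpr and fitted with 4 group means over all 20 libraries. Two-sided quasi-likelihood tests were adjusted by Benjamini-Hochberg over 14661 genes. A second fit had a mean per genotype and time. SE is the log2 fold change over the root of F, and intervals are 2.12 SE either side. Total counts of 21634890 to 30461351 make counting error small beside the spread between mice. Scripts were tested on simulated data. Every pair of libraries in a group differed by more than sampling noise, the chi-square per degree of freedom running from 27.16 to 486.6.

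The members and the 16 other gene lists were chosen with earlier results of these data known. Of other lists, at most the 2 highest and 2 lowest called genes per comparison with a mean of at least 1 CPM were to be named, with Cad, Eed, Alb and Mki67 always; some genes of the set and the lists are not reported here; likeness was ranked by Pearson's r. Alternatives were DESeq2 1.42.0, library size alone, RLE factors, no filter, only the libraries compared, time as a term, the mouse as a block and leaving out each library, plus leaving out WT after PHx libraries 2 and 4, chosen after seeing the data.

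Titles pair 9 mice, since baseline and later samples came from the same animal. Deviations from group means correlated by -0.0549 to 0.152 within these pairs. Between baseline and later libraries of a genotype that the titles do not pair, they correlated by -0.234 to 0.259. The title of WT baseline library 1 has no mouse number, so it and WT library 1 after PHx got blocks of their own.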

Additional observations from a re-analysis of the deposited data

Results flagged for a closer look

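Each of the 9 genes was checked in each group of 5 for a single library standing apart, 36 groups in all, of which chance flags about 1 in 20, and 2 were flagged. Otc in KO after PHx library 12, the only KO library taken at 30 h, had 296 CPM, with a gap to the next library of 0.758 of the group's range. Sds in WT baseline library 3 had 193 CPM, with a gap of 0.73 of the range.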

How the results depend on the processing

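The cause of the shifts below was not tested. The number of the 9 genes called lower in KO after PHx, 0 in the reported fit, was 1 with time as a term (Otc; 9.88% of all genes) and 0 to 1 on leaving out single libraries (5.12% to 14.4%). The number lower in KO at baseline was 4 with only the libraries compared (18% of all genes). At 48 h 5 genes were called lower by DESeq2 (15.1% of all genes) and 5 without the filter (6.86%), with 2 to 5 on leaving out single libraries (4.65% to 17% of all genes), where a lone library is assumed to vary like the other groups. At 40 h the number higher was 0 in the reported fit (8.61% of all genes) and 0 by DESeq2 (12.9%). That count changed on leaving out a single library, which leaves 1 in that arm. Without WT after PHx libraries 2 and 4, an alternative chosen after seeing the data, 2 genes were called lower in the WT response (3.05% of all genes), where leaving out single libraries gave 4 to 5 (5.06% to 9.09%), beside 3 to 5 in the KO response (7.43% to 17.6%). Of the other lists, fitting only the baseline libraries called 8 of 22 amino acid enzymes lower in KO in place of 1, 4 of 13 pericentral genes in place of 1 and 4 of 15 regulators in place of 2. All genes then had 18% lower in place of 4.89%. Time as a term called 7 of 10 histidine and serine genes lower in the KO response in place of 3 and 15 of 22 amino acid enzymes in place of 9. All genes then had 15.2% lower in place of 12.1%.

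All of the fold changes that changed sign were short of the threshold. Sds in the KO response was 0.0095 with DESeq2, 0.0094 with RLE factors and 0.0098 with only the libraries compared. With library size alone, values at baseline were 0.0020 for Cps1, 0.30 for Nags and 0.0086 for Hal, Gls2 after PHx was 0.17, the WT responses were 0.11 for Asl and 0.048 for Sds, the KO responses were 0.17 for Sds and 0.086 for Cad, and the differences of responses were -0.0074 for Otc and -0.16 for Cyp2f2. With the mouse as a replicate block, the WT responses were -0.19 for Nags and -0.0044 for Cad, and the difference of responses was -0.0021 for Otc. Among the members the block changed the call of Ass1 in KO only. With time as a term, KO against WT after PHx was -0.12 for Asl and -0.027 for Hal, and the differences of responses were -0.045 for Otc and -0.35 for Cyp2f2. Without WT libraries 2 and 4, Hal in KO after PHx was -0.19, the WT response was 0.030 for Sds, and the differences of responses were -0.054 for Gls2 and -0.46 for Cyp2f2.

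Leaving out single libraries moved the difference of responses from -0.61 to 0.50 for Cyp2f2, -0.055 to 0.66 for Gls2 and -0.47 to 0.50 for Otc. In KO against WT after PHx it moved Asl from -0.37 to 0.25, Gls2 from -0.58 to 0.18 and Hal from -0.21 to 0.29. For Sds the difference at baseline ran from -0.086 to 0.29, and the KO response from -0.35 to 0.21. Nags ran from -0.23 to 0.35 in the WT response, and Cad from -0.11 to 0.34 in the WT and from -0.33 to 0.066 in the KO response. The 9 genes had at least 559 counts in each library.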
